A study of Mus musculus with 16 samples.

Results

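The genes described here are 39 members of the mouse ATF4 amino acid response, chosen by name from 45706 gene IDs: 9 transcription factors and stress regulators, 8 amino acid transporters or their partner chain, 10 enzymes of amino acid and one-carbon synthesis, and 12 cytosolic aminoacyl-tRNA synthetases. Their Ensembl IDs were matched by symbol, each to 1 ID, and all 39 passed the low count filter. They were measured as read counts in 16 RNA sequencing libraries of mouse bone marrow. The study asked how marrow with reduced GATA2, a transcription factor of blood stem cells, responds when small numbers of sorted cells are transplanted into lethally irradiated wild-type recipients. The labels name LSK cells, the marrow fraction without lineage markers but with Sca-1 and Kit that is rich in stem cells and early progenitors, as Day2_Gata2 (2 libraries), Day2_WT (3), Day0_Gata2 (3) and Day0_WT (2). CD45.2 marrow cells, which carry an allelic form of a leukocyte surface protein used to tell donor from recipient cells, were given as Week2_Gata2 (3) and Week2_WT (3). The protocol in the labels describes lineage-negative marrow cells for every library. The labels give no age or strain, no description of the Gata2 allele beyond its name, and nothing of what was done to the LSK cells between Day0 and Day2. Whether replicates are different mice is not stated, and only those of different sex by Ddx3y (in Day0_Gata2, Day0_WT and Week2_Gata2) are shown to be, so the p-values cover the spread among libraries, part of which may be technical.

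ATF4 is a transcription factor whose translation increases when the initiation factor eIF2 is phosphorylated by one of several stress kinases, among them GCN2, which senses uncharged tRNA during amino acid shortage. ATF4 then binds, often as a dimer with a C/EBP protein, to composite elements near genes for amino acid uptake, amino acid and one-carbon synthesis and tRNA charging. Because much of its control is translational, the Atf4 mRNA and the mRNAs of its targets can move separately, and mRNA counts do not measure ATF4 protein.

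The promoter windows of the genes were searched for the core of that composite element, TGATGNAA, or its reverse complement TTNCATCA, on both strands. RefSeq windows (GRCm38.p6, from 250 bases before to 50 bases after the start) were matched for 31 of the 39 genes, and 12 of these 31 (38.7%) held the motif, against 1219 of all 27025 genes in the table (4.51%). By role, it was found in 3 of 9 regulators, 2 of 5 transporters, 2 of 9 synthesis enzymes and 5 of 8 synthetases with a window, and in 0 of the 8 other cytosolic synthetases and scaffold genes with a window. The 30 bases around it are shown for 8 genes with a role in the results below, in the direction of the gene, with the motif in capitals.
Trib3, minus strand, chr2:152344028-152344057: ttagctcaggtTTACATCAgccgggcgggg
Chac1, plus strand, chr2:119351038-119351067: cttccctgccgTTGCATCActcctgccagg
Slc1a4, minus strand, chr11:20332699-20332728: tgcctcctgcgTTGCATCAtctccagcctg
Slc7a11, minus strand, chr3:50443642-50443671: acctggagaatTTGCATCAtcatgcagccc
Asns, minus strand, chr6:7693214-7693243: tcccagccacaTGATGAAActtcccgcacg
Gars, plus strand, chr6:55037960-55037989: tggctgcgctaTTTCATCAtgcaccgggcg
Iars, plus strand, chr13:49682126-49682155: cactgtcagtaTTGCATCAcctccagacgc
Tars, minus strand, chr15:11399655-11399684: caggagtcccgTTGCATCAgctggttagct
Slc7a11 and Aars each held the motif at 2 places that did not overlap. Nupr1, Pycr1 and Yars held it at 1 place each. These matches describe letters in a window and do not show that a factor was bound.

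Total counts were 19618830 to 68305582 in LSK libraries and 176933583 to 320717267 in Week2 libraries. The LSK libraries labelled Gata2 did not have less Gata2 mRNA than WT: it stood at 491 and 737 CPM (the unit of all levels here, a gene's counts relative to the TMM-scaled library total) in Day2_Gata2, against 291, 262 and 259 CPM in Day2_WT. At Day0 it had 611, 752 and 677 CPM in Day0_Gata2, against 446 and 329 CPM in Day0_WT. At Week2, Gata2 had 27.4, 12.4 and 7.86 CPM in Week2_Gata2, against 11.9, 14.5 and 11.1 CPM in Week2_WT, and these overlapped. Gata2 passed the test of the label at no time (edgeR adjusted p = 0.341 at Day0, 0.207 at Day2 and 1 at Week2). The allele behind the label could not be checked from gene counts. Kit, which defines LSK cells, was at 409 to 654 CPM at Day2 and at 472 to 716 CPM at Day0, and Ptprc, which encodes CD45, was at 349 to 1030 CPM in Week2 libraries. Day0_WT replicate 1 stood apart: its log2 CPM correlated with replicate 2 at r = 0.841 across genes, against at least 0.978 between LSK replicates of any other group. It also had the lowest total of the LSK libraries, 19618830 counts, the next lowest being 47904658 in Day0_WT replicate 2. It held counts for 22150 genes, against 26159 in replicate 2. Day0_WT replicate 1 also had the highest LSK share of counts on unconfirmed transcripts (the TEC class, 0.362%) and on 4 repeat-rich genes (9.33%). Every WT value at Day0 rests on it as 1 of 2 libraries, and the values without it are given for the main counts, medians and genes.

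In LSK cells, most of the 39 genes were higher at Day2 than at Day0, with the largest differences in Chac1, Slc7a3, Cth and Slc1a4. Chac1, Slc7a3 and Cth had few counts at Day0. Slc7a3 passed the low count filter only through its Day2 libraries, where it was high, so its direction is no independent result. In the libraries labelled Gata2, 23 of the 39 genes rose and 1 (Cebpb) fell at an adjusted p under 0.05 (edgeR quasi-likelihood test, Benjamini-Hochberg adjusted over 19162 genes), against 4.48% of all genes tested that rose and 4.82% that fell, 9.3% in all. In WT, 31 of 39 rose and 1 (Cebpb) fell, against 11.9% and 17.9% of all genes tested, 29.9% in all. The median log2 fold change of the 39 genes was 0.96 in libraries labelled Gata2 and 1.37 in WT, while over all genes tested it was -0.07 in libraries labelled Gata2 and -0.11 in WT. Without Day0_WT replicate 1, the WT median was 1.16, and among the WT folds Asns was at 3.49, Slc1a4 at 4.37, Chac1 at 5.59, Trib3 at 3.46, Mthfd2 at 2.79, Psat1 at 1.91, Iars at 1.73 and Gars at 1.47, each still called. In the libraries labelled Gata2, all libraries of Day2 lay above all those of Day0 for 33 of the 39 genes and below for 1, against 25.9% and 34.4% of all genes. In WT, 35 of the 39 lay above and 1 below, against 24.8% and 26.7% of all genes. The members and lists were chosen with these time differences known, so these counts describe the genes and do not test the list. In bulk RNA, a change in how many cells of a type are present and a change in RNA per cell cannot be told apart.

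**Figure D1:**
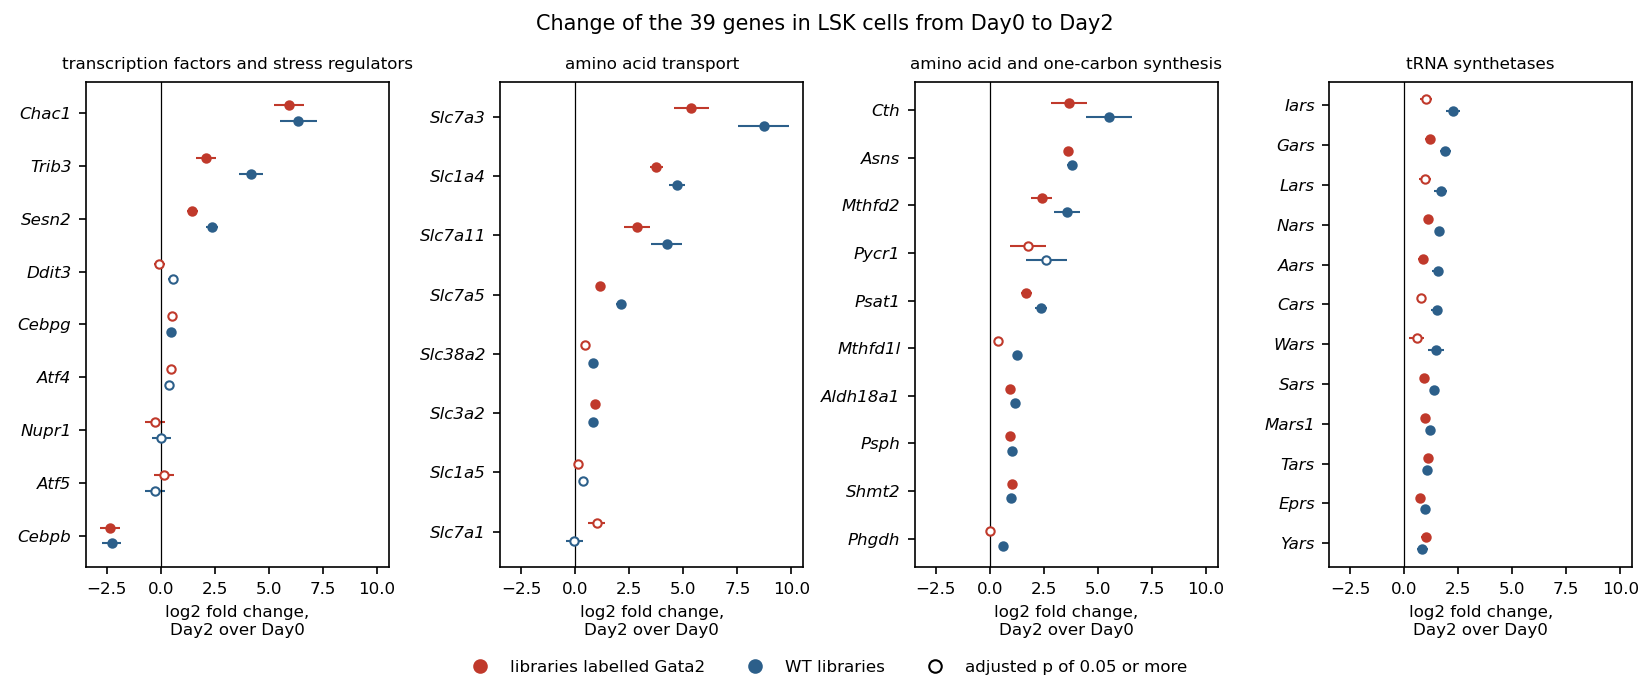
Log2 fold change of each of the 39 genes in LSK cells, Day2 over Day0, by role, in libraries labelled Gata2 (red) and in WT libraries (blue); bars are 1 SE and open points did not pass an adjusted p of 0.05. Most points lie right of 0, Chac1, Slc7a3, Cth and Slc1a4 lie furthest, and Cebpb lies left of 0 in both genotypes.

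The Atf4 mRNA itself did not pass the test over time. Atf4 had 227 and 299 CPM in Day2_Gata2, against 207, 196 and 163 CPM in Day0_Gata2. In WT, Atf4 had 270, 301 and 310 CPM at Day2, against 210 and 242 CPM at Day0. Every Day2 library lay above every Day0 library of its genotype, but neither difference passed the test, with log2 fold changes of 0.48 (SE 0.16, edgeR adjusted p = 0.0922) in libraries labelled Gata2 and 0.38 (SE 0.16, adjusted p = 0.106) in WT. Ddit3, which encodes CHOP, a transcription factor of prolonged stress, had 12.3 and 14.8 CPM in Day2_Gata2, against 12.9, 15.98 and 13.9 CPM in Day0_Gata2, and these values overlapped. In WT, Ddit3 had 19.95, 22.8 and 23.5 CPM at Day2, against 12.9 and 17.2 CPM at Day0, without overlap. Ddit3 and Mars1 share 68 exon bases on opposite strands. Ddit3 also shares 105 exon bases (6.13% of its own) on the same strand with a second annotated gene of that symbol. The log2 fold changes of Ddit3 were -0.07 (adjusted p = 0.90) in libraries labelled Gata2 and 0.55 (adjusted p = 0.112) in WT by edgeR.

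Of the other regulators, the feedback and stress genes Chac1, Trib3 and Sesn2 rose in both genotypes. Chac1, which encodes an enzyme that degrades glutathione, had 16.6 and 15.3 CPM in Day2_Gata2, against 0.220, 0.219 and 0.338 CPM in Day0_Gata2. In WT, Chac1 had 20.01, 22.3 and 18.7 CPM at Day2, against 0 and 0.412 CPM at Day0. No Day0 library exceeded 0.412 CPM, and no Day2 library was under 15.3 CPM. The ratio of its summed rates, Day2 over Day0, was 59.4 (95% exact interval 44.3 to 81.5) in libraries labelled Gata2 and 69.4 (45.3 to 112) in WT, intervals that cover counting error only, and both changes passed the edgeR test (adjusted p = 0.00122 and 0.00114). Trib3, a pseudokinase that binds ATF4 and dampens its activity, had 17.3 and 21.6 CPM in Day2_Gata2, against 4.59, 4.92 and 4.14 CPM in Day0_Gata2. In WT, Trib3 had 61.7, 57.4 and 62.9 CPM at Day2, against 1.11 and 5.41 CPM at Day0. Day2 lay above Day0 in both genotypes, with log2 fold changes of 2.10 (SE 0.46, edgeR adjusted p = 0.0229) in libraries labelled Gata2 and 4.18 (SE 0.56, adjusted p = 0.00124) in WT.

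Sesn2, a stress-induced inhibitor of the growth kinase complex mTORC1, had 50.5 and 58.8 CPM in Day2_Gata2, against 16.3, 20.8 and 22.8 CPM in Day0_Gata2. In WT, Sesn2 had 86.6, 67.3 and 85.1 CPM at Day2, against 10.7 and 20.1 CPM at Day0. The groups did not overlap, and both changes passed, with log2 fold changes of 1.45 (adjusted p = 0.0102) and 2.37 (adjusted p = 0.000917) in libraries labelled Gata2 and in WT by edgeR. Cebpb, which encodes a C/EBP factor that also drives myeloid and emergency granulocyte programmes, moved the other way. Cebpb had 13.3 and 18.2 CPM in Day2_Gata2, against 68.3, 62.1 and 112 CPM in Day0_Gata2. In WT, Cebpb had 30.5, 12.01 and 30.2 CPM at Day2, against 152 and 83.9 CPM at Day0. Every Day2 value lay below every Day0 value, and the log2 fold changes were -2.36 (adjusted p = 0.0153) in libraries labelled Gata2 and -2.28 (adjusted p = 0.0057) in WT by edgeR. In libraries labelled Gata2, Cebpb did not pass without Day0_Gata2 replicate 3 or without either Day2_Gata2 replicate. Of its exon bases, 20.7% are shared with Tmem189 on the opposite strand, and no source used here gives the strand setting of the counting, so its counts may include reads of that gene. Cebpg, which encodes a small C/EBP partner of ATF4, had a log2 fold change of 0.49 (adjusted p = 0.0566) in libraries labelled Gata2 and 0.45 (adjusted p = 0.0398) in WT by edgeR, a WT call that held under 2 of the 23 alternatives. Atf5, a paralogue of ATF4, and Nupr1, a small stress-induced chromatin protein, stayed within overlapping ranges in both genotypes.

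**Figure D2:**
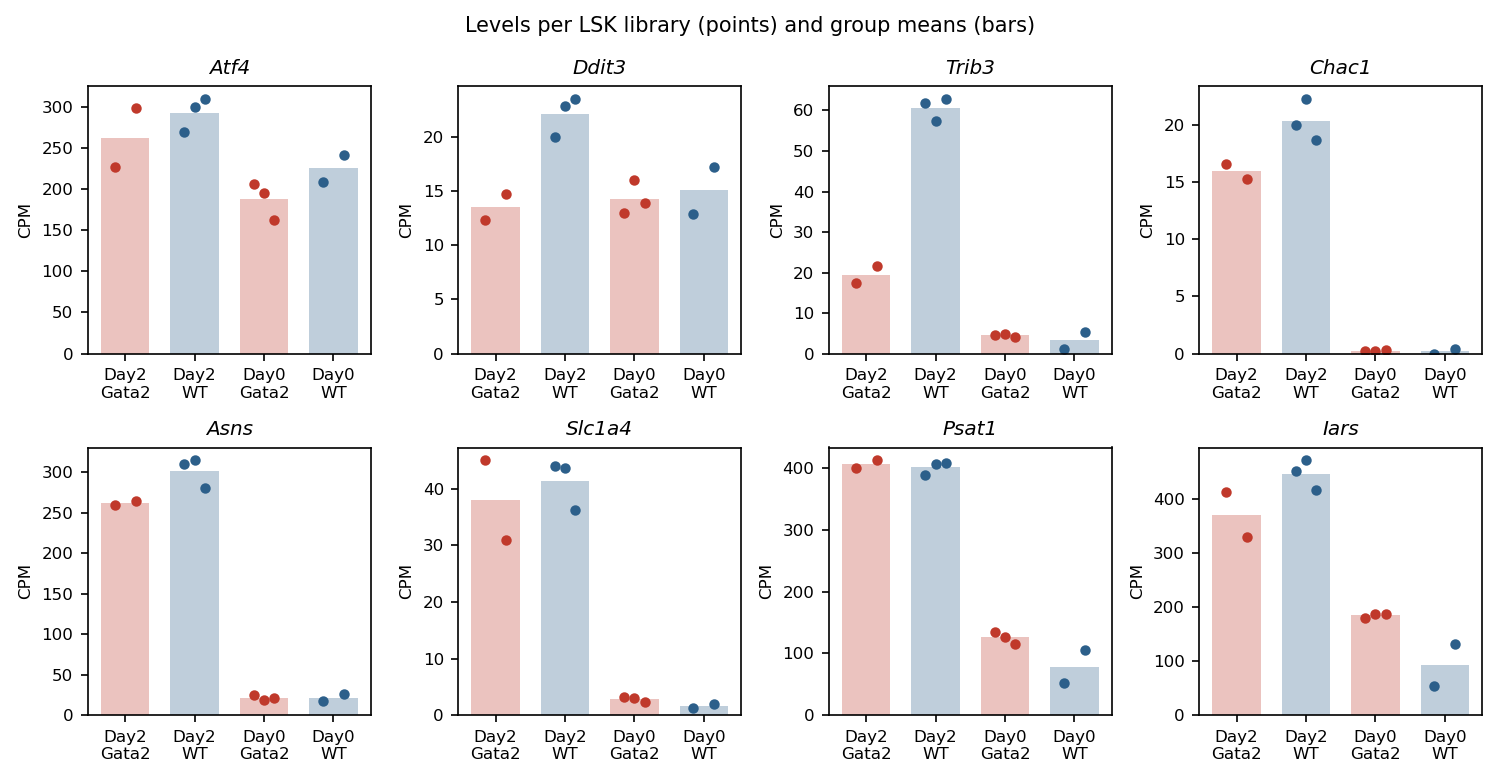
CPM of 8 of the genes in each LSK library (points), with group means (bars), ordered from left as Day2_Gata2, Day2_WT, Day0_Gata2 and Day0_WT. Asns, Slc1a4 and Chac1 are near the axis at Day0 and high at Day2, Atf4 differs little, and Trib3 at Day2 is at 17.3 and 21.6 CPM in libraries labelled Gata2 and at 57.4 to 62.9 CPM in WT.

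Among the transporters, those for neutral amino acids, cystine and cationic amino acids with low Day0 levels showed the largest differences. Slc7a3, a cationic amino acid transporter, had 2.67 and 8.24 CPM in Day2_Gata2, against 0.0200, 0.179 and 0.183 CPM in Day0_Gata2. In WT, Slc7a3 had 14.8, 12.8 and 9.09 CPM at Day2, against 0 and 0.0392 CPM at Day0, where the libraries held only 2 counts in all. The ratio of summed rates was 40.7 (95% exact interval 26.8 to 64.7) in libraries labelled Gata2 and 441 (122 to 3642) in WT, and both changes passed the edgeR test (adjusted p = 0.00404 and 0.00124). Slc1a4, which carries alanine, serine and cysteine, had 45.1 and 31.0 CPM in Day2_Gata2, against 3.17, 3.03 and 2.32 CPM in Day0_Gata2. In WT, Slc1a4 had 44.1, 43.7 and 36.2 CPM at Day2, against 1.16 and 1.96 CPM at Day0. No Day2 value came near a Day0 value, and the log2 fold changes were 3.74 (SE 0.29, adjusted p = 0.000169) in libraries labelled Gata2 and 4.70 (SE 0.36, adjusted p = 0.000105) in WT by edgeR.

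Slc7a11, the cystine and glutamate exchanger, had 9.31 and 7.87 CPM in Day2_Gata2, against 1.28, 1.29 and 0.971 CPM in Day0_Gata2. In WT, Slc7a11 had 18.2, 14.7 and 7.71 CPM at Day2, against 0.193 and 1.18 CPM at Day0. Slc7a5, the light chain of the large neutral amino acid transporter LAT1, had 348 and 417 CPM in Day2_Gata2, against 170, 177 and 179 CPM in Day0_Gata2. In WT, Slc7a5 had 440, 394 and 366 CPM at Day2, against 72.3 and 116 CPM at Day0, the lowest values being those of Day0_WT. Both genes rose in both genotypes: the log2 fold changes of Slc7a11 were 2.86 in libraries labelled Gata2 and 4.23 in WT, and those of Slc7a5 were 1.12 and 2.09. Slc3a2, the heavy chain that carries Slc7a5 and Slc7a11 to the membrane, rose by less, with log2 fold changes of 0.89 in libraries labelled Gata2 and 0.80 in WT. Slc38a2, an inducible glutamine and alanine transporter, rose in WT (0.82, adjusted p = 0.0084) and did not pass in libraries labelled Gata2 (0.43, adjusted p = 0.136) by edgeR. The glutamine transporter Slc1a5 and the cationic transporter Slc7a1 passed in neither genotype. Slc7a1 had overlapping ranges in WT, whereas its Day2 values lay above those of Day0 in libraries labelled Gata2.

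Asparagine synthetase showed the lowest adjusted p of the 39 genes in both genotypes. Asns had 259 and 264 CPM in Day2_Gata2, against 24.5, 18.7 and 21.0 CPM in Day0_Gata2. In WT, Asns had 311, 315 and 280 CPM at Day2, against 16.9 and 26.3 CPM at Day0. The replicates were tight and the 2 days far apart, with log2 fold changes of 3.61 (SE 0.20, edgeR adjusted p = 3.6e-05) in libraries labelled Gata2 and 3.80 (SE 0.22, adjusted p = 3.13e-05) in WT. Asns, Slc1a4 and Aldh18a1 passed in both genotypes under all 23 alternatives tried.

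Serine synthesis changed unevenly along its steps. Phgdh, the first enzyme, had 519 and 629 CPM in Day2_Gata2, against 595, 542 and 562 CPM in Day0_Gata2. In WT, Phgdh had 500, 551 and 629 CPM at Day2, against 309 and 438 CPM at Day0. The Gata2-labelled values overlapped (log2 fold change 0.02, edgeR adjusted p = 0.969), while those of WT did not (0.58, adjusted p = 0.0331). The WT call of Phgdh held under 6 of the 23 alternatives, and its log2 fold change was 0.32 (adjusted p = 0.196) without Day0_WT replicate 1. Psat1, the second enzyme, had 401 and 413 CPM in Day2_Gata2, against 135, 127 and 115 CPM in Day0_Gata2. In WT, Psat1 had 390, 408 and 409 CPM at Day2, against 51.5 and 105 CPM at Day0. It rose in both genotypes, with log2 fold changes of 1.69 (SE 0.24, adjusted p = 0.00295) in libraries labelled Gata2 and 2.36 (SE 0.26, adjusted p = 0.000536) in WT by edgeR. Psph, the last enzyme, rose by 0.92 on the log2 scale in libraries labelled Gata2 and by 1.03 in WT, though 10.4% of its exon bases are shared with Cct6a on the opposite strand.

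Of the mitochondrial one-carbon enzymes, Mthfd2 had 153 and 165 CPM in Day2_Gata2, against 32.6, 27.2 and 31.1 CPM in Day0_Gata2. In WT, Mthfd2 had 175, 182 and 188 CPM at Day2, against 4.40 and 25.7 CPM at Day0. The Day0_WT replicates were far apart from each other, and both lay below every other LSK library. The log2 fold changes were 2.39 (SE 0.50, adjusted p = 0.018) in libraries labelled Gata2 and 3.57 (SE 0.59, adjusted p = 0.00309) in WT by edgeR. Shmt2, which passes the serine carbon to folate upstream of Mthfd2, rose by 1.01 in libraries labelled Gata2 and by 0.96 in WT on the log2 scale. Mthfd1l, which releases the carbon as formate, rose in WT (1.26, adjusted p = 0.000845) and did not pass in libraries labelled Gata2 (0.38, adjusted p = 0.147) by edgeR. Aldh18a1, the first committed enzyme of proline synthesis, rose by 0.95 in libraries labelled Gata2 and by 1.14 in WT.

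Pycr1, the last proline enzyme, had 31.2 and 41.2 CPM in Day2_Gata2, against 11.6, 10.5 and 9.98 CPM in Day0_Gata2. In WT, Pycr1 had 27.8, 32.7 and 32.3 CPM at Day2, against 0.242 and 9.62 CPM at Day0. Although the groups did not overlap, Pycr1 passed in neither genotype (adjusted p = 0.224 in libraries labelled Gata2 and 0.062 in WT by edgeR), and its lowest value was that of Day0_WT replicate 1. Cth, which makes cysteine from cystathionine, had 1.88 and 3.51 CPM in Day2_Gata2, against 0.140, 0.119 and 0.366 CPM in Day0_Gata2. In WT, Cth had 7.69, 5.21 and 9.19 CPM at Day2, against 0 and 0.274 CPM at Day0. The ratio of summed rates was 11.8 (95% exact interval 8.44 to 17.01) in libraries labelled Gata2 and 37.8 (22.4 to 69.3) in WT, and both changes passed the edgeR test (adjusted p = 0.0268 and 0.00625).

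All 12 cytosolic synthetases of the set, which attach alanine, cysteine, glutamate and proline, glycine, isoleucine, leucine, methionine, asparagine, serine, threonine, tryptophan or tyrosine to their tRNAs, lay above 0 in both genotypes. In the libraries labelled Gata2, 8 of the 12 rose, and their median log2 fold change was 0.95. All 12 rose in WT, by 0.83 (Yars) to 2.26 (Iars), with a median of 1.48, which was 1.26 without Day0_WT replicate 1 with all 12 still called. Iars had 412 and 328 CPM in Day2_Gata2, against 179, 187 and 186 CPM in Day0_Gata2. In WT, Iars had 451, 471 and 416 CPM at Day2, against 54.5 and 132 CPM at Day0. The Iars ranges did not overlap in either genotype, yet the change passed only in the WT test (2.26, adjusted p = 0.00152), while that in libraries labelled Gata2 was 1.01 (adjusted p = 0.0584) by edgeR. Gars had 377 and 403 CPM in Day2_Gata2, against 179, 171 and 165 CPM in Day0_Gata2. In WT, Gars had 431, 412 and 395 CPM at Day2, against 75.3 and 146 CPM at Day0. Gars rose in both genotypes, by 1.18 (adjusted p = 0.0107) in libraries labelled Gata2 and by 1.90 (adjusted p = 0.000938) in WT on the log2 scale by edgeR. Cars (0.79), Lars (0.96) and Wars (0.56) were the other synthetases that did not pass in libraries labelled Gata2. With the compared groups fitted alone, 12 of 12 synthetases rose in libraries labelled Gata2 and 8 of 12 in WT. Aars shares 14.3% of its exon bases with Exosc6 on the same strand, so part of its counts may belong to that gene.

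The other synthetase lists set the 12 beside the rest of the tRNA charging machinery. Of all genes tested, 4.48% rose and 4.82% fell in libraries labelled Gata2, and 11.9% rose and 17.9% fell in WT. Of 8 further cytosolic synthetase genes and 3 scaffold genes of the multisynthetase complex, 3 of 11 rose in libraries labelled Gata2 (median 0.46) and 9 of 11 in WT (median 0.71). Farsb, a subunit of the phenylalanine enzyme, rose by 1.04 in libraries labelled Gata2 and by 1.08 in WT on the log2 scale. The count in libraries labelled Gata2 was 1 of 11 without Day2_Gata2 replicate 1, 5 without Day0_WT replicate 1 and 6 when these libraries were fitted alone. That in WT was 3 of 11 when the WT libraries were fitted alone, 4 without Day2_WT replicate 2 or 3, and 5 without Day0_WT replicate 1 or Day2_Gata2 replicate 1. Of 17 mitochondrial synthetases, 0 rose and 1 fell in libraries labelled Gata2 (median 0.13), and 2 rose and 1 fell in WT (median 0.08). The share of them that rose in WT was close to that of all genes. The count of rising mitochondrial genes in libraries labelled Gata2 was 1 without either Day0_WT replicate. That in WT was 4 without Day0_WT replicate 1, 5 without Day0_WT replicate 2, 0 without Day2_WT replicate 3 and 1 without any other library. The medians of the 3 lists were not tested against each other. The one that fell in both, Lars2, is 1 of the 4 repeat-rich genes, at 2268 and 4066 CPM in Day2_Gata2, against 11451, 6683 and 7329 CPM in Day0_Gata2, so its counts may include reads of repeats.

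**Figure D3:**
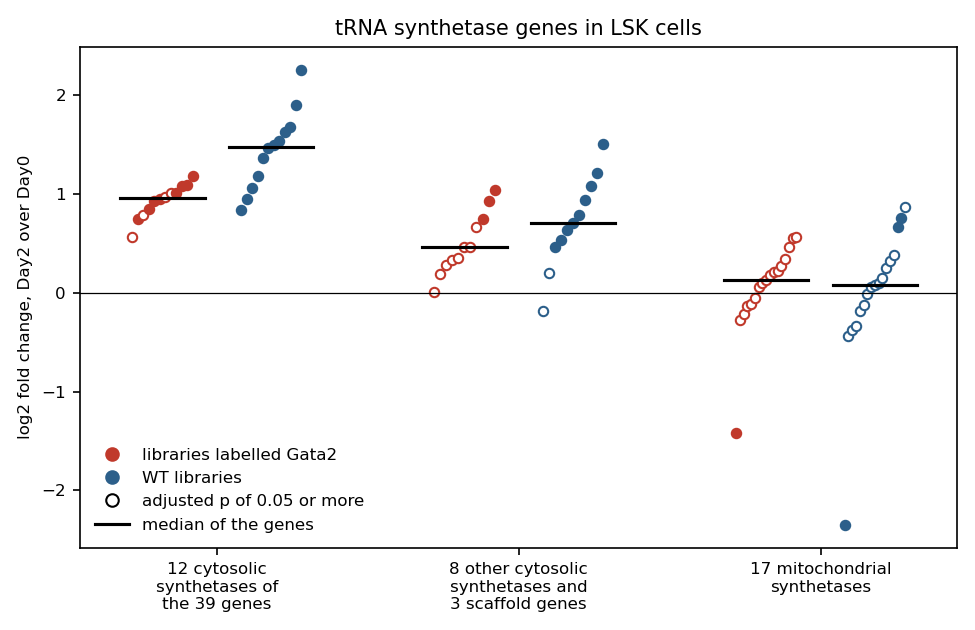
Log2 fold change, Day2 over Day0, of synthetase genes in LSK cells for libraries labelled Gata2 (red) and WT libraries (blue), with medians as lines and open points for an adjusted p of 0.05 or more. The 12 cytosolic synthetases of the set have medians of 0.95 and 1.48, the other cytosolic genes and scaffold 0.46 and 0.71, and the mitochondrial synthetases 0.13 and 0.08.

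In a list of eIF2, its kinases, exchange factor, phosphatase subunits and related genes, the medians were smaller than those of the 39 genes. Changes went in both directions. Of 18, 3 rose and 1 fell in libraries labelled Gata2 (median 0.21), against 4.48% and 4.82% of all genes tested. In WT, 6 rose and 1 fell (median 0.41), against 11.9% and 17.9% of all genes. The gene that fell in both was Ppp1r15a, which encodes GADD34, the stress-induced subunit that brings a phosphatase to eIF2. It had 55.2 and 52.5 CPM in Day2_Gata2, against 235, 296 and 239 CPM in Day0_Gata2, and in WT 78.7, 80.9 and 84.5 CPM at Day2, against 247 and 413 CPM at Day0. Every Day2 value of Ppp1r15a lay below every Day0 value, with log2 fold changes of -2.25 (adjusted p = 0.000517) in libraries labelled Gata2 and -2.02 (adjusted p = 0.000341) in WT by edgeR. Eif2s1 and Eif2s2, the alpha and beta subunits of eIF2, rose in both genotypes, by 0.85 and 1.14 in libraries labelled Gata2 and by 1.08 for each in WT on the log2 scale. The count of rising genes of this list in libraries labelled Gata2 was higher without either Day0_WT replicate and lower without Day2_Gata2 replicate 1. In WT it was higher without Day0_WT replicate 2.

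Among 17 tested of 18 other known ATF4 target genes, 5 rose and 1 fell in libraries labelled Gata2 (median 0.68), against 4.48% and 4.82% of all genes. In WT, 11 rose and 0 fell (median 1.22), against 11.9% and 17.9% of all genes. Ppp1r15a, itself stress-induced, was not in this list. Gpt2, an enzyme that makes alanine, had 37.2 and 39.7 CPM in Day2_Gata2, against 7.15, 7.15 and 8.55 CPM in Day0_Gata2. In WT, Gpt2 had 48.4, 36.3 and 54.6 CPM at Day2, against 10.1 and 9.29 CPM at Day0. Stc2, a secreted glycoprotein of the stress response, had 3.20 and 3.75 CPM in Day2_Gata2, against 0.319, 0.279 and 0.394 CPM in Day0_Gata2. Both genes rose in both genotypes without overlap, Gpt2 by 2.34 and Stc2 by 3.38 in libraries labelled Gata2, and by 2.26 and 4.37 in WT, on the log2 scale. Eif4ebp1, which encodes an inhibitor of cap-dependent translation, rose by 1.12 in libraries labelled Gata2 and by 1.70 in WT. The list was not uniform. In libraries labelled Gata2, 13 of the 17 had a positive and 4 a negative log2 fold change, the lowest being -1.44. In WT, 15 were positive and 2 negative, the lowest being -0.63. Without 1 library, the count of rising genes of this list in libraries labelled Gata2 was 3 of 17 at the lowest (without Day0_Gata2 replicate 2, or either Day2_Gata2 replicate), 9 of 17 without Day0_WT replicate 1 and 8 of 17 without Day0_WT replicate 2.

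Of all genes tested, 4.48% rose and 4.82% fell in libraries labelled Gata2, and 11.9% rose and 17.9% fell in WT. Of 15 other amino acid transporters tested, 3 rose in libraries labelled Gata2, and 4 rose and 2 fell in WT (median 0.08 in each). Slc7a8, a neutral amino acid transporter, rose by 1.01 in libraries labelled Gata2 and by 1.54 in WT on the log2 scale. The count in libraries labelled Gata2 was 1 of 15 without any 1 of the Day0_Gata2 or Day2_Gata2 replicates. Of 20 other serine, one-carbon, proline and glutamine enzymes, 4 rose in libraries labelled Gata2 (median 0.20), and 5 rose and 1 fell in WT (median 0.52). Aldh1l2, a mitochondrial folate enzyme, had 6.80 and 5.58 CPM in Day2_Gata2, against 0.160, 0.259 and 0.0985 CPM in Day0_Gata2. In WT, Aldh1l2 had 8.22, 9.94 and 14.3 CPM at Day2, against 0.774 and 0.157 CPM at Day0. It rose in both genotypes, by 5.17 (adjusted p = 0.00232) in libraries labelled Gata2 and by 4.63 (adjusted p = 0.00315) in WT on the log2 scale by edgeR. The count of rising enzymes in libraries labelled Gata2 was 7 of 20 without Day0_WT replicate 1, and 1 or 2 of 20 without any 1 of the Day0_Gata2, Day2_Gata2 or Day2_WT replicates. In WT the count was higher without Day0_WT replicate 2. The share of all genes called also moved when that library was left out, as given below for the label. These counts therefore show nothing particular to the list.

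Genes of the 39 with the promoter motif shown above had larger medians over time than those with a window and no motif. With the motif, 9 of 12 rose in libraries labelled Gata2 (median 1.47) and 10 of 12 in WT (median 2.43). Without it, 10 of 19 rose in libraries labelled Gata2 (median 0.89) and 14 of 19 in WT (median 0.95). The ranges overlapped widely: Nupr1 and Pycr1 held the motif and did not pass, and Mthfd2, without the motif in its window, rose by 2.39 in libraries labelled Gata2 and by 3.57 in WT. This split is a description and was not tested.

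Per kilobase of exon, the order of the genes kept Phgdh first at both days, with a mean of 231 CPM per kb in Day2_Gata2, 225 in Day2_WT, 228 in Day0_Gata2 and 150 in Day0_WT. Asns held 95.7 CPM per kb in Day2_Gata2 and 110 in Day2_WT, against 7.82 in Day0_Gata2 and 7.89 in Day0_WT. At Day2 it was therefore among the most abundant of the 39 genes, at a level close to that of Atf4 (112 in Day2_Gata2 and 125 in Day2_WT). The genes with the largest fold changes, Slc7a3, Cth, Slc7a11, Chac1 and Slc1a4, remained low per kilobase even at Day2, between 0.617 (Slc7a11 in Day2_Gata2) and 12.4 (Chac1 in Day2_WT).

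Other properties of the libraries moved with time. The TEC share was 0.0648% and 0.0702% in Day2_Gata2 and 0.0314% to 0.0582% in Day2_WT, against 0.131% to 0.159% in Day0_Gata2 and 0.187% and 0.362% in Day0_WT. The repeat-rich genes took 2.80% to 4.39% of counts at Day2, against 5.10% to 9.33% at Day0. These shares and the day do not overlap and cannot be told apart. With the TEC share as a covariate, 24 of 39 genes passed in libraries labelled Gata2 and 13 in WT, and with the repeat share, 16 and 4. The 4 that passed in WT with either covariate were Asns, Slc1a4, Aldh18a1 and Tars. Without Day0_WT replicate 1, 32 genes passed in libraries labelled Gata2 and 31 in WT. Leaving out single libraries of its own groups cut the count in libraries labelled Gata2 to 15 (without Day0_Gata2 replicate 3), 9 (without Day2_Gata2 replicate 1) and 12 (without Day2_Gata2 replicate 2), while each of the 23 genes that rose there had a positive log2 fold change under all 23 alternatives tried. Of the 31 that rose in WT, this held for all but Phgdh and Wars. Day2 libraries were all male by Ddx3y, while Day0 libraries were mixed, and with sex as a covariate 27 genes passed in libraries labelled Gata2 and 32 in WT. Of the 6 further lists, 0 genes rose in WT with the repeat share as a covariate, and the WT counts fell to between 0 and 6 when the WT libraries were fitted alone.

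Cell type markers differed with the day as well. Of 5 LSK markers, Flt3 and Ly6a, which encodes Sca-1, fell in both genotypes. Ly6a had 19.6 and 32.4 CPM in Day2_Gata2 and 22.6 to 31.4 CPM in Day2_WT, against 64.1 to 69.4 CPM in Day0_Gata2 and 56.3 and 62.2 CPM in Day0_WT. Both megakaryocyte markers, Pf4 and Itga2b, rose in both genotypes, and their summed level was 1352 to 1357 CPM in Day2_Gata2 and 1517 to 1867 CPM in Day2_WT, against 239 to 300 CPM in Day0_Gata2 and 179 to 308 CPM in Day0_WT. Of the 4 neutrophil markers, 2 rose in WT and 0 passed in libraries labelled Gata2. Of the 3 plasma cell markers, Jchain and Mzb1 fell and Xbp1 rose in both genotypes, with Jchain at 0 in both Day2_Gata2 libraries and Mzb1 at 0 in all Day2_WT libraries. Of the 3 T and NK markers, Cd3e and Cd3g were at 0 in all Day2 libraries. Nkg7 alone made up their sum there, at 126 to 150 CPM in Day2_Gata2 and 105 to 142 CPM in Day2_WT. Sums of the T and NK and of the plasma cell markers may thus rest mainly on Nkg7 and Xbp1. Here and below, these sums need not stand for those cell types. Of the mast cell markers, Mcpt8 fell in WT and 0 passed in libraries labelled Gata2. The 3 stromal markers summed to 0.0790 and 0.513 CPM in Day2_Gata2 and 0.0571 to 0.200 CPM in Day2_WT, against 11.2 to 14.95 CPM in Day0_Gata2 and 12.3 and 36.9 CPM in Day0_WT. The 4 erythroid markers summed to 10.4 and 13.2 CPM in Day2_Gata2 and 19.7 to 27.0 CPM in Day2_WT, against 29.9 to 48.4 CPM in Day0_Gata2 and 31.4 and 57.1 CPM in Day0_WT. The part of these markers in the time differences of the 39 genes was not tested.

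The next question was whether the genotypes differed in their change over time. Of the 39 genes, 31 had a smaller log2 fold change in libraries labelled Gata2 than in WT, as had 10188 of all 19162 genes tested. The count of members was 31 also without either Day0_WT replicate. Over the alternatives it lay between 26 (with the TEC share as a covariate) and 36 (without Day2_Gata2 replicate 2). All 23 genes that rose in libraries labelled Gata2 (100%) also rose in WT, where they were 74.2% of the 31 that rose. Cars, Cebpg, Iars, Lars, Mthfd1l, Phgdh, Slc38a2 and Wars rose in WT and did not pass in libraries labelled Gata2. Of these WT calls, Cebpg held under 2 and Phgdh under 6 of the 23 alternatives, and the other 6 under 18 to 21. In libraries labelled Gata2, Cars and Iars passed under 7 of the 23, Lars under 6, Cebpg under 5 and Wars under 4. Mthfd1l, Phgdh and Slc38a2 passed there under 0. With the compared groups fitted alone, 12 of 12 synthetases rose in libraries labelled Gata2 and 8 in WT. For synthesis enzymes it was 8 and 6 of 10, for transporters 5 and 4 of 8, and for regulators 4 and 3 of 9. Which genotype had more calls thus depended on the fit. The test of the difference itself, the Gata2-label effect at Day2 minus that at Day0, passed for 0 of 39 genes by edgeR, and 9 had an unadjusted p under 0.05, a share of which all genes tested gave 10.4%. The median difference was -0.53, against -0.06 over all genes, and it was -0.18 with the TEC share and -0.24 with the repeat share as a covariate. By role, the TEC share took the median to -0.04 (in place of -0.62) for synthesis enzymes and to -0.05 (in place of -0.61) for synthetases. Mthfd1l had the lowest p (-0.88, SE 0.22, edgeR adjusted p = 0.465) and was the 1 gene that DESeq2 called, while limma voom called 0. Slc7a5 (-0.96), Trib3 (-2.08), Iars (-1.25) and Slc7a3 (-3.36) followed, with edgeR adjusted p = 0.465 or 0.466. The median was -0.31 without Day0_WT replicate 1, with 0 genes called, and -0.98 without Day0_WT replicate 2, with 23 genes called, each lower, when 31.1% of all genes were called. For the other regulators named throughout, the difference was 0.10 for Atf4 and -0.62 for Ddit3, and it was -0.19 for Asns.

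At Day0, most of the 39 genes were somewhat higher in libraries labelled Gata2 than in WT, but 0 passed the test. The median log2 fold change, Gata2 label over WT, was 0.35 against 0.02 over all genes tested. The TEC share (0.131% to 0.159% in Day0_Gata2, against 0.187% and 0.362% in Day0_WT) and the repeat share (5.10% to 5.83% in Day0_Gata2, against 6.51% and 9.33% in Day0_WT) also separated the genotypes. With the TEC share as a covariate the median was 0.06, and with the repeat share 0.12. The synthetase median was then 0.08 and 0.16 in place of 0.44, and that of synthesis enzymes 0.01 and 0.06 in place of 0.45. The 4 neutrophil markers summed to 3486 to 5301 CPM in Day0_Gata2, against 1383 and 3007 CPM in Day0_WT. The 5 LSK markers summed to 1865 to 2110 CPM in Day0_Gata2, against 1586 and 1639 CPM in Day0_WT. The 3 plasma cell markers summed to 243 to 294 CPM in Day0_Gata2, against 302 and 336 CPM in Day0_WT. The 3 T and NK markers summed to 185.3 to 271.9 CPM in Day0_Gata2, against 147.5 and 184.6 CPM in Day0_WT. None of these sums overlapped. Those of the plasma cell and of the T and NK markers may rest mainly on Xbp1 and Nkg7. The part of these sums in the Day0 difference was not tested. Of the 39, 18 lay above WT without overlap and 1 (Atf4) below, against 18.3% and 14.2% of all genes. The 18 were 9 of 12 synthetases, 6 of 10 synthesis enzymes, 3 of 8 transporters and 0 of 9 regulators. By edgeR, 11 genes had an unadjusted p under 0.05, against 13.5% of all genes; DESeq2 called 1 (Slc7a5) and limma voom 0.

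Slc7a5 had the lowest p, with 170, 177 and 179 CPM in Day0_Gata2 against 72.3 and 116 CPM in Day0_WT (log2 fold change 0.90, SE 0.20, edgeR adjusted p = 0.341). Phgdh (0.60), Mthfd1l (0.51), Iars (0.98) and Psat1 (0.68) followed at the same adjusted p. In each of these 5 genes, Day0_WT replicate 1 was the lowest LSK library at Day0 and replicate 2 lay between it and the libraries labelled Gata2. Without Day0_WT replicate 1, the median of the 39 was 0.17 with 0 called, and Slc7a5 was at 0.60, Iars at 0.48, Phgdh at 0.37, Mthfd1l at 0.36 and Psat1 at 0.27. Without Day0_WT replicate 2, the median was 0.82 and 24 genes were called, 22 higher and 2 lower, when 39.9% of all genes were called. The size of the Day0 difference was therefore smaller against Day0_WT replicate 2 than against replicate 1. Atf4 had 207, 196 and 163 CPM in Day0_Gata2, against 210 and 242 CPM in Day0_WT, a log2 fold change of -0.26 (adjusted p = 0.464), and Trib3 (0.44), Ddit3 (-0.08) and Asns (-0.02) had overlapping ranges.

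**Figure D4:**
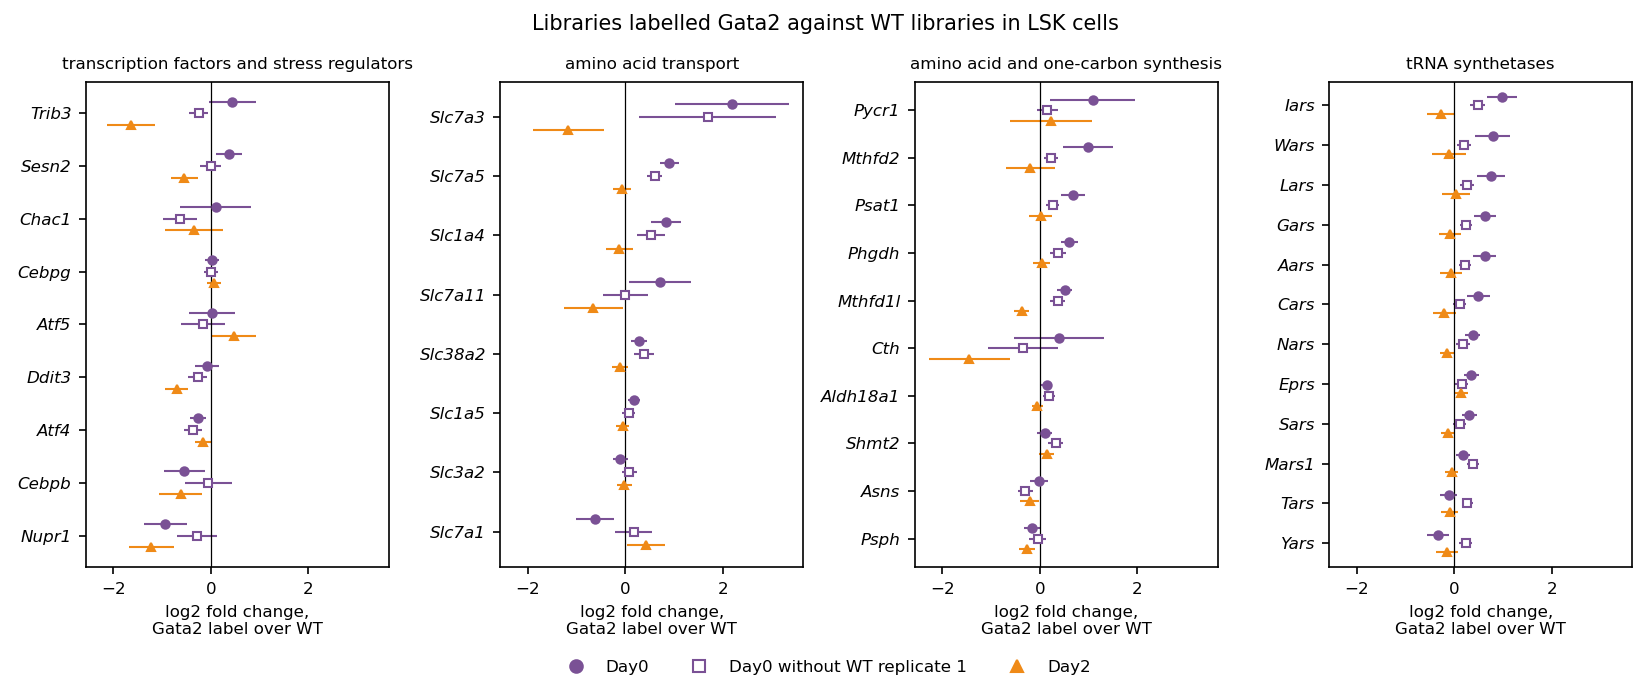
Log2 fold change of each of the 39 genes in LSK cells, libraries labelled Gata2 over WT libraries, at Day0 (filled circles), at Day0 without WT replicate 1 (open squares) and at Day2 (triangles), with bars of 1 SE. Most synthetases lie right of 0 at Day0 and near 0 at Day2, and Trib3 lies left of 0 at Day2 at -1.64.

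At Day2, 0 of the 39 genes passed between the genotypes, and those that lay apart were lower in libraries labelled Gata2. Of the 39 genes, 14 lay below WT without overlap and 0 above, against 11.1% and 9.96% of all genes, and the median log2 fold change was -0.12 and that over all genes was close to 0. The 14 were 5 of 9 regulators (Trib3, Ddit3, Nupr1, Sesn2 and Chac1), 5 of 10 synthesis enzymes, 3 of 12 synthetases and 1 of 8 transporters. The median by role was -0.54 for regulators, -0.12 for synthesis enzymes, -0.10 for synthetases and -0.09 for transporters. That of the regulators was -0.31 without Day2_Gata2 replicate 1, and 4 of the 9 overlapped between the genotypes. Other measures also lay apart at Day2. The TEC share was 0.0648% and 0.0702% in Day2_Gata2, against 0.0314% to 0.0582% in Day2_WT. Summed erythroid markers were at 10.4 and 13.2 CPM in Day2_Gata2, against 19.7 to 27.0 CPM in Day2_WT. Megakaryocyte markers were at 1352 and 1357 CPM in Day2_Gata2, against 1517 to 1867 CPM in Day2_WT, and mast cell markers at 135 and 132 CPM in Day2_Gata2, against 92.0 to 109 CPM in Day2_WT. Plasma cell markers were at 293 and 291 CPM in Day2_Gata2, against 335 to 383 CPM in Day2_WT. Jchain had no count in Day2_Gata2 and Mzb1 none in Day2_WT, so this sum may rest mainly on Xbp1. The part of these measures in the Day2 differences was not tested. By edgeR, 0 of the 39 passed and 4 had an unadjusted p under 0.05, against 5.58% of all genes.

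Trib3 had the lowest p at Day2. Its 17.3 and 21.6 CPM in Day2_Gata2, against 61.7, 57.4 and 62.9 CPM in Day2_WT, gave a log2 fold change of -1.64 (SE 0.49, edgeR adjusted p = 0.736). The groups were far apart relative to their own spread, and the test shares its spread with the Day0 libraries. Trib3 was the 1 gene called when the Day2 libraries were fitted alone, by DESeq2 and by limma voom, and when either Day0_WT replicate was left out, with adjusted p between 0.00799 and 1 over all alternatives and a log2 fold change between -1.80 and -1.35. Ddit3 had 12.3 and 14.8 CPM in Day2_Gata2, against 19.95, 22.8 and 23.5 CPM in Day2_WT (-0.70, adjusted p = 0.822 by edgeR). Nupr1 had 3.71 and 4.61 CPM in Day2_Gata2, against 8.70, 9.98 and 10.5 CPM in Day2_WT (-1.22, adjusted p = 0.849). Neither overlapped, and neither passed. Mthfd1l (-0.37) and Sesn2 (-0.54) were next in p, Asns was at -0.21 and Atf4 at -0.16. Of the 17 tested other ATF4 target genes, 12 lay below WT without overlap at Day2 and 0 above, with a median of -0.47, and 0 passed. Ddit4, an inhibitor of mTORC1 signalling, had 10.4 and 6.74 CPM in Day2_Gata2, against 36.99, 33.4 and 40.7 CPM in Day2_WT (-2.11, adjusted p = 0.0991 by edgeR).

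At Week2, in CD45.2 cells, the genotypes overlapped for all 39 genes, where 1.41% of all 36485 genes tested did not overlap. The median log2 fold change, Gata2 label over WT, was 0.24 and that over all genes was close to 0. It was -0.01 without Week2_Gata2 replicate 1, 0.12 without Week2_Gata2 replicate 2, 0.49 without Week2_Gata2 replicate 3 and 0.58 without Week2_WT replicate 1. Week2_Gata2 replicate 3 was the 1 female Week2 library, and with sex as a covariate the median was 0.48. That of the synthetases, 0.28, was close to 0 without Week2_Gata2 replicate 1 and 0.65 without Week2_WT replicate 1. By edgeR, 0 passed and 0 had an unadjusted p under 0.05, and DESeq2 called 0. The fit of limma voom with quality weights called 20 of the 39, 19 of them higher, but also called 35.3% of all genes. Nupr1 had the lowest edgeR p, with 16.6, 7.16 and 5.70 CPM in Week2_Gata2 against 6.45, 5.74 and 4.28 CPM in Week2_WT (0.84, adjusted p = 1). Asns had 90.8, 41.5 and 9.14 CPM in Week2_Gata2 against 53.9, 20.05 and 26.8 CPM in Week2_WT, and both its highest and its lowest value came from libraries labelled Gata2. Atf4 (0.16), Ddit3 (0.01) and Trib3 (-0.25) also overlapped. The differences between the Gata2-label effects at Week2 and at Day0 passed for 0 of the 39 by edgeR, DESeq2 and limma voom, and 3 had an unadjusted p under 0.05 by edgeR, against 4.68% of all genes.

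Within Week2, many of the genes followed the same order of libraries. The summed level of the 12 synthetases was 2030, 1824 and 866 CPM in Week2_Gata2, against 1754, 987 and 1191 CPM in Week2_WT. Replicates 1 and 2 labelled Gata2 and WT replicate 1 were high, and the other 3 libraries were low. The same 3 libraries had the lowest TEC shares, under 0.1%, and 28 of the 39 genes, among them all 12 synthetases and 9 of 10 synthesis enzymes, were higher in each of them than in any of the other 3. Over all genes tested, 23% were higher and 41.9% lower in this way, and Slc7a3 was the 1 gene of the 39 lower in all 3. Summed markers of several cell types also varied widely between these libraries. The 3 plasma cell markers summed to 637, 982 and 246 CPM in Week2_Gata2 and 623, 265 and 299 CPM in Week2_WT, and were highest in the same 3 libraries. The 3 T and NK markers, at 251, 153 and 39.6 CPM in Week2_Gata2 and 150, 116 and 39.4 CPM in Week2_WT, were too. The 4 erythroid markers summed to 383, 1089 and 9.18 CPM in Week2_Gata2 and 1473, 11.04 and 3434 CPM in Week2_WT. The 4 neutrophil markers summed to 23764, 6426 and 4725 CPM in Week2_Gata2 and 20457, 13732 and 3973 CPM in Week2_WT. Neither of these sums followed that order of libraries. Kit had 56.6, 31.5 and 16.7 CPM in Week2_Gata2 and 49.9, 60.8 and 33.4 CPM in Week2_WT and did not follow that order. The sum of all 5 LSK markers did, at 165, 117 and 57.8 CPM in Week2_Gata2 and 110, 109 and 72.0 CPM in Week2_WT. Ptprc did too, at 1030, 748 and 436 CPM in Week2_Gata2 and 810, 653 and 349 CPM in Week2_WT. The sum of the stromal markers also followed the order, and those of the monocyte, mast cell and megakaryocyte markers did not. This order of libraries was found in the data, is no group of the study and was not tested, nor was the part of any cell type in it.

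**Figure D5:**
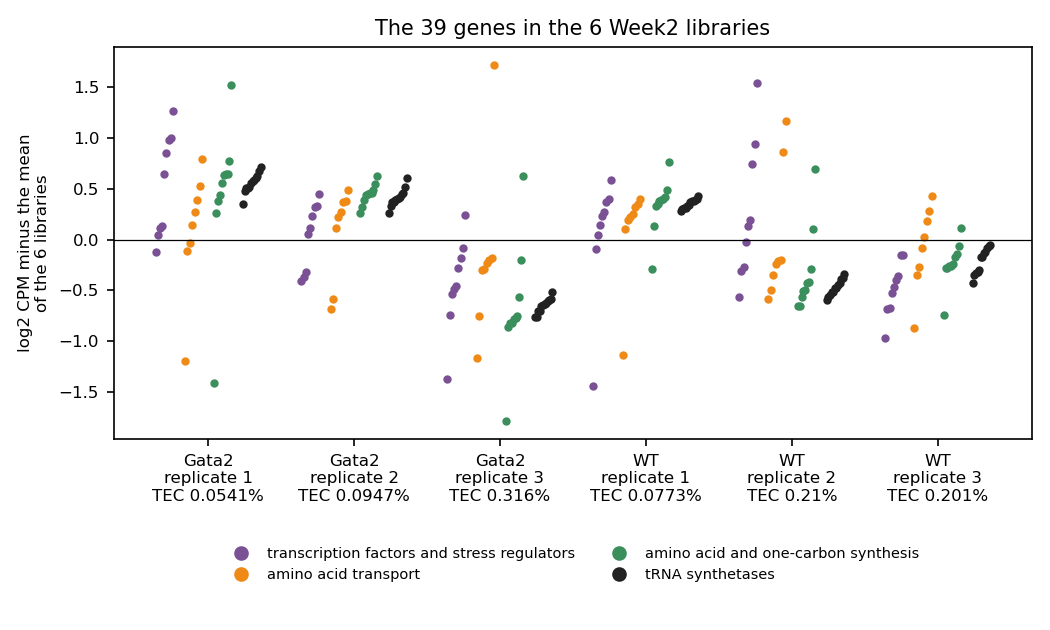
Log2 CPM of each of the 39 genes in each Week2 library minus its mean over the 6 libraries, coloured by role, with the TEC share of the library under its name. Synthetases lie above 0 in Gata2 replicates 1 and 2 and in WT replicate 1, and below 0 in the other 3 libraries.

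Week2 CD45.2 cells also differed from Day0 LSK cells, a comparison in which cell population and time change together. With both genotypes averaged, 8 of the 39 genes were higher at Week2 and 10 lower by edgeR, when 61.6% of all genes tested were called (46.3% higher and 15.4% lower) and the median over all genes was 1.08. The median of the 39 was -0.02. The split was 12 higher and 10 lower with RLE scaling and 13 higher and 10 lower with upper quartile scaling. Slc7a11 (log2 fold change 4.13), Chac1 (3.76), Cth (3.56), Slc7a3 (5.01), Slc1a5 (1.54), Mthfd2 (1.19), Sesn2 (0.93) and Ddit3 (0.60) were higher. With all 16 libraries scaled together, Slc1a5 had 899, 1176 and 1160 CPM in Week2_Gata2 and 1124, 847 and 1370 CPM in Week2_WT, against 428, 400 and 387 CPM in Day0_Gata2 and 318 and 386 CPM in Day0_WT. Every Week2 library lay above every Day0 library for this glutamine transporter. Shmt2 (-1.17), Slc7a1 (-1.57), Phgdh (-1.20), Aldh18a1 (-0.93), Slc3a2 (-0.79), Eprs, Psph, Yars, Slc7a5 and Mthfd1l were lower. Atf4 (-0.05), Trib3 (-0.03) and Asns (0.84, adjusted p = 0.0587) did not pass. With the repeat share as a covariate, 1 of the 39 passed.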

How the data were processed

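The authors deposited RNA sequencing reads as whole-number counts by Ensembl gene ID in 16 libraries. The submitters' processing notes name Trimmomatic 0.38, STAR 2.5.2b and the mm10 genome. How reads were counted, on which strand and over which annotation is not given in the sources used. Per the labels' protocols, 2 library kits were used (TruSeq Stranded mRNA and SMARTer Ultra Low), without saying for which library.

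Symbols and exons came from GENCODE M21 (GRCm38), with Mars1 found as Mars through a RefSeq synonym. The test was that of edgeR 4.0.16 (R 4.3.3), its robust quasi-likelihood test after filterByExpr and TMM scaling. Benjamini-Hochberg adjustment ran over all genes tested, and genes were called under 0.05. One fit held the 10 LSK libraries in their 4 groups, with 1 shared estimate of the spread. A separate fit held the 6 Week2 libraries, and Week2 was set against Day0 in a fit of all 16. CPM were computed from the counts with TMM scaling. Ratios of summed rates have exact conditional 95% intervals; reads carry no molecular identifiers, so these cover counting error only. Promoter windows are RefSeq's (GRCm38.p6).

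The members, the 6 further lists, the markers, the motif and the alternatives were chosen with earlier results of these data known. Named genes are Atf4, Ddit3, Trib3, Asns and Gata2 in every comparison, with the 12 called members of largest change or, under 5 calls, the 5 of lowest p, and up to 3 of lowest p of each further list. Other members are named to account for all 39, after their values were seen. Jchain, Kit, Lars2, Ddit4 and the other marker genes printed with values were also picked after their values were seen.

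Alternatives were scaling by RLE or by upper quartile, leaving the low counts in, a stricter filter (5 CPM in 2 libraries), protein-coding genes alone, DESeq2 1.42.0, limma 3.58.1 voom with quality weights, 1 fit of all libraries, the compared groups alone, the replicate number as a block, each library left out, and sex, TEC share or repeat share as covariates, the last chosen after the data were seen. Where a group was left with 1 library, it was assumed to vary like the others. The share of all genes called also moved between alternatives, so counts under them describe stability and nothing particular to a list. The procedure was tested on simulated counts. Replicates differed by more than counting noise (lowest chi-square over degrees of freedom 28.4). Replicate numbers did not pair the libraries: same-numbered deviations correlated between -0.74 and 0.63. The result of 1 marker list is not reported here.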

Additional observations from a re-analysis of the deposited data

Results flagged for a closer look

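Mthfd2, Mthfd1l, Cars and Iars were picked out because the libraries labelled Gata2 were all higher than those of WT at Day0 and all lower at Day2. The difference between the Gata2-label effects, Day2 minus Day0 on the log2 scale, was -1.18 for Mthfd2 (edgeR adjusted p = 0.567), -0.88 for Mthfd1l (adjusted p = 0.465), -0.70 for Cars (adjusted p = 0.494) and -1.25 for Iars (adjusted p = 0.465), and 0 of the 4 passed the test of that difference. Mthfd2 had 153 and 165 CPM in Day2_Gata2, against 175, 182 and 188 CPM in Day2_WT, and at Day0 32.6, 27.2 and 31.1 CPM in Day0_Gata2, against 4.40 and 25.7 CPM in Day0_WT. Cars had 115 and 104 CPM in Day2_Gata2, against 118, 135 and 125 CPM in Day2_WT, and 67.0, 63.3 and 59.3 CPM in Day0_Gata2, against 30.8 and 58.7 CPM in Day0_WT. In each of the 4 genes, Day0_WT replicate 1 was the lowest library at Day0.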

How the results depend on the processing

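Day2 against Day0 passed for 24 genes in libraries labelled Gata2 and 32 in WT. In WT, 4 passed with the repeat share and 13 with the TEC share as a covariate. Leaving out 1 library gave 9 to 32 genes in libraries labelled Gata2 and 29 to 35 in WT, 0 to 24 for the label at Day0, 0 to 1 at Day2, 0 to 0 at Week2 and 16 to 22 for Week2 against Day0. It gave 0 to 23 for the difference of effects Day2 minus Day0 and 0 to 8 for Week2 minus Day0. Against 0 by edgeR, DESeq2 called 1 gene at Day0, 1 at Day2 and 1 for the difference Day2 minus Day0, limma voom 1 at Day2 and 20 at Week2, and the Day2 libraries fitted alone 1. With the repeat share, Week2 against Day0 gave 1 gene in place of 18. The replicate block, which rests on a shared number and no known pairing, gave 17 genes over time in libraries labelled Gata2 and 29 in WT, 18 for Week2 against Day0, and 0 otherwise. Upper quartile scaling moved the WT median of all genes over time to -0.26 from -0.11, with 29 members called.

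Directions turned in 11 of the single-gene repeats, 1525 kept direction and side of the threshold, 88 lost the call and 29 gained it. These repeats cover only the genes named for each comparison. They leave out values that were not called and were under 1 SE in the main fit. Directions also turned outside them. Over time, Phgdh in libraries labelled Gata2 (0.02) kept its direction in 12 of 23 alternatives, and Nupr1 in WT (0.02) in 9 of 23. With 1 library left out, Atf4 at Day0 lay between -0.362 and 0.0395 (without Day0_WT replicate 2) and Slc7a11 at Week2 between -0.877 and 0.20 (without Week2_WT replicate 2). Ddit3 over time in WT was -0.0444 with the repeat share and -0.0631 with the TEC share. With the repeat share, Week2 against Day0 was -0.15 for Chac1, -0.63 for Cth, -0.35 for Ddit3, -2.15 for Mthfd2, -0.44 for Sesn2 and 1.03 for Slc7a1, and the Trib3 difference Week2 minus Day0 was 0.11. The cause was not tested. Groups of 2 or 3 libraries limit every comparison, and low counts limit the folds of Slc7a3 (23 counts in Day0_Gata2 and 2 in Day0_WT), Chac1 (21 in Day0_WT) and Cth (14 in Day0_WT).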
